A study of Homo sapiens with 12 samples.

Results

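The kynurenine pathway breaks down most of the tryptophan that a cell does not use for protein, and the genes described here are its opening enzyme IDO1 (indoleamine 2,3-dioxygenase), 8 further enzymes of the route and WARS1, the cytosolic tryptophanyl-tRNA synthetase. IDO1 was selected on these data, for its higher count in NS1 cells with inducer, and TDO2, KYNU, KMO, AFMID, KYAT1, KYAT3, HAAO, QPRT and WARS1 were selected by pathway. These 10 genes are among the 60603 in the count table, and 9 of them were among the 17775 genes with enough reads to be tested, TDO2 being the exception. Because the NS1 libraries served to choose IDO1, its values in any comparison with those libraries are given as a description with no test. The other members were tested in every comparison.

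The data are 12 poly(A) RNA-seq libraries of T24 cells, a line established from a human urinary bladder carcinoma, in 4 groups of 3. The genotype was labelled WT or NS1 and the cells had either no treatment or 5-Ad-IAA, an auxin analogue called the inducer below, so that WT cells, WT cells with inducer, NS1 cells and NS1 cells with inducer were compared. The series concerns AlissAID, a method in which an auxin-type inducer starts the degradation of an untagged protein of the cell. The labels do not spell out NS1, do not say which parts of the degradation system the WT cells carry, and give neither the time nor the dose of the inducer nor whether the NS1 line is a single clone.

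As background, IDO1 or TDO2 opens the ring of tryptophan, and AFMID, the arylformamidase, releases kynurenine. Kynurenine is then hydroxylated by KMO, cleaved by KYNU or transaminated to kynurenic acid by KYAT1 and KYAT3, and the KMO and KYNU branch runs through HAAO to quinolinic acid, from which QPRT starts the synthesis of NAD. IDO1 is known as an interferon-gamma target that tumour cells can use to deplete tryptophan and to make kynurenine, a ligand of the aryl hydrocarbon receptor AHR, and WARS1 is the tRNA synthetase best known for its induction by interferon-gamma. In bulk RNA, fewer cells that carry a transcript and less of it per cell cannot be told apart.

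Promoter sequence is shown for the members whose windows hold letters that interferon-activated factors are known to bind, and for QPRT as a member whose window holds none. The RefSeq table of promoters, on GRCh38.p14, gave 13 windows for the 9 members other than IDO1, each from 250 bases before to 50 bases after a transcription start. The gamma-activated site was searched as TTCNNNGAA and the core of the interferon-stimulated response element, bound by IRF proteins, as GAAANNGAA, on both strands. The gamma-activated site was found in 7.66% of all 35116 windows of the table and the response element core in 8.11%. Below, 10 flanking bases on each side are in lower case and the match is in capitals, 5′ to 3′ on the strand of the gene.
WARS1, gamma-activated site at -142, chr14:100375471-100375499, minus strand: gctcaagtgtTTCTGAGAAtctgggtgat
WARS1, response element core at -55, chr14:100375384-100375412, minus strand: tttcagaaggGAAACTGAAagaaagaggg
KYNU, gamma-activated site at -34, chr2:142877620-142877648, plus strand: gtctgagcagTTCTTTGAAtttctcaccc
KYAT1, gamma-activated site at -122, chr9:128845854-128845882, minus strand: gaccaggtcaTTCAGGGAAtgaaatggaa
QPRT, the 250 bases before a start, chr16:29678758-29679007, plus strand: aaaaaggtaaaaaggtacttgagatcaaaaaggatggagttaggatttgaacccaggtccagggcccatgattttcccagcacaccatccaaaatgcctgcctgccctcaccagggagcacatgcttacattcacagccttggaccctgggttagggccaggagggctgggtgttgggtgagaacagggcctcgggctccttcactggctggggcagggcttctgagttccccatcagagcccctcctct

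Positions are counted from the first transcribed base, negative upstream. KYNU held a further gamma-activated site match that lies after its start, beginning at position 6, and KYAT1 held response element cores in 2 of its 3 windows. Both WARS1 matches lie upstream of the same start, an inner start of the gene whose first transcribed base is at 100375347 on chromosome 14, within annotated WARS1 exons. The window of the other WARS1 start held neither motif, nor did the windows of KMO, HAAO, TDO2, QPRT, AFMID and KYAT3. The core of the dioxin response element that AHR binds, GCGTG, was found on either strand in the windows of AFMID and WARS1, and in 36.54% of all windows. A match is a description of these letters and not a shown binding site.

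IDO1 (ENSG00000131203.13, chromosome 8) was low in every group except NS1 cells with inducer. Levels are normalised CPM, the usual scale of RNA-seq in which a gene's reads are divided by the total counted reads of the library, here after TMM scaling between libraries. With inducer the NS1 libraries held 12.5, 8.64 and 10.3 normalised CPM in replicates 1, 2 and 3, from 241, 99 and 124 reads. Without it the same line held 0.926, 0.509 and 0.769, from 15, 7 and 8 reads. The lowest treated NS1 library lay above every other library of the study, and the folds within same-numbered pairs of NS1 libraries were 13.5, 17 and 13.4, a fitted log2 fold change of 3.82.

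In WT cells IDO1 varied more between replicates than with treatment. Untreated WT libraries held 6.89, 1.58 and 0.87 normalised CPM, and WT libraries with inducer held 4.08, 1.34 and 1.17. Replicate 1 stood above the other two in both WT groups, 5.63-fold above their mean without inducer and 3.26-fold with it. The inducer changed IDO1 in WT cells by -0.53 on the log2 scale (SE 0.59, adjusted p = 1), and the 3 pairs did not move one way, with folds of 0.593, 0.847 and 1.35. Without untreated WT replicate 1 that value was 0.90, with the opposite sign.

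Ordered by mean, IDO1 was highest in NS1 cells with inducer, at 10.5 ± 1.95 normalised CPM (SD, n = 3). WT cells followed at 3.11 ± 3.29, then WT cells with inducer at 2.2 ± 1.64 and NS1 cells at 0.735 ± 0.211. The 2 WT groups overlapped, and so did untreated WT and untreated NS1 cells (0.87 and 0.926 at the nearest), so the order of these neighbours does not hold beyond the spread. The libraries of WT cells with inducer lay above those of untreated NS1 cells. The fitted difference of NS1 from WT was -2.17 on the log2 scale without inducer and 2.17 with it. Both values rest in part on WT replicate 1: without replicate 1 of every group they were -1.01 and 2.90. Per kilobase of exon, IDO1 in NS1 cells with inducer reached 3.22 normalised CPM, against 0.225 in untreated NS1 cells. A 3.7% share of its exon bases overlaps an antisense gene, AC007991.4, which held 0 to 31 reads a library.

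TDO2 (ENSG00000151790.9, chromosome 4), the liver-type enzyme for the same step, was at or under the counting floor of 3 reads in all 12 libraries. It had 1 read in WT replicate 2 with inducer, 2 reads in NS1 replicate 2 with inducer and no reads in the other 10 libraries. IDO2, the paralogue of IDO1, had 1 read in one WT library with inducer. Of the genes that can take the opening step, IDO1 was the one above the counting floor.

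**Figure D1:**
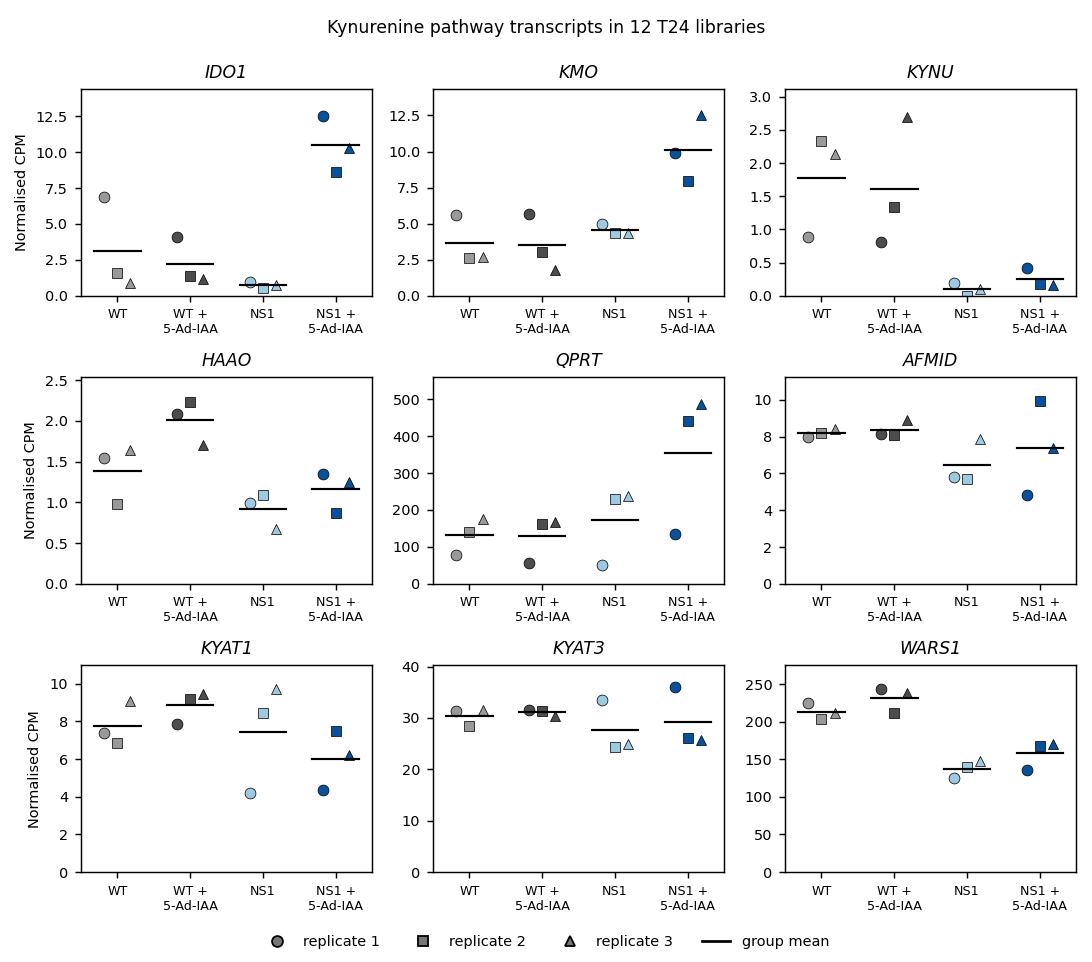
Normalised CPM (y axis, from 0, a scale for each panel) of the 9 tested members in the 4 groups of T24 libraries (x axis); circles, squares and triangles are replicates 1, 2 and 3 and the bar is the group mean. IDO1 and KMO have their 3 highest libraries in NS1 cells with inducer, KYNU is below 0.5 in every NS1 library, and replicate 1 is the lowest for QPRT in every group.

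KMO (ENSG00000117009.12, chromosome 1), the kynurenine 3-monooxygenase, was the member whose levels went most nearly with IDO1, with a Pearson correlation of 0.774 over the 12 libraries against -0.434 to 0.203 for the other tested members. This is a description over libraries that share groups. NS1 cells with inducer held 9.88, 7.94 and 12.5 normalised CPM and untreated NS1 cells 4.94, 4.36 and 4.33, so that the groups did not overlap, and the folds within pairs were 2, 1.82 and 2.88. WT cells held 5.58, 2.63 and 2.71 without inducer and 5.7, 3.04 and 1.8 with it. The change with inducer in NS1 cells was 1.15 on the log2 scale (SE 0.35, adjusted p = 0.0711), and 1.12 (SE 0.16, adjusted p = 9.82e-05) when replicates were paired within each line. In WT cells it was -0.04 (SE 0.37, adjusted p = 1). With inducer KMO was 2.75-fold higher in NS1 than in WT cells (log2 1.46, SE 0.35, adjusted p = 0.00781), a call lost with replicate 2 or 3 of every group left out (adjusted p = 0.0803 and 0.124).

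Beside this, 28.4% of the exon bases of KMO are shared with OPN3, the opsin 3 gene on the opposite strand, and whether reads were counted by strand is not given in the sources used here. Unless strand was used in counting, reads from KMO and OPN3 cannot be told apart over these bases. OPN3 held 16.6, 16.3 and 21.7 normalised CPM in NS1 cells with inducer and 9.94, 8.5 and 8.94 without it. Its own change was 0.99 on the log2 scale (SE 0.28, adjusted p = 0.0536, and 2.64e-05 when paired within each line), near that of KMO.

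KYNU (ENSG00000115919.15, chromosome 2), the kynureninase, fell in NS1 cells relative to WT cells in both treatments. Untreated WT libraries held 0.89, 2.33 and 2.13 normalised CPM, from 19, 31 and 22 reads, while untreated NS1 libraries held 3, 0 and 1 reads, all at or under the floor of 3 reads. That floor was 0.231 normalised CPM as the mean over the group, and the mean of untreated WT cells, 1.78, was 7.72-fold above it. This is a ratio of means and not a lower bound for each library. In replicate 1 the untreated WT library was 4.81-fold above the untreated NS1 library. The test gave an adjusted p of 0.00523. With inducer the WT libraries held 0.807, 1.34 and 2.7 normalised CPM and the NS1 libraries 0.416, 0.175 and 0.166, with no overlap (log2 -2.45, SE 0.63, adjusted p = 0.0116). KYNU passed the filter on low counts through its WT libraries, so a line difference was built into its being tested. The adjusted p-values of KYNU between the lines are therefore not read as support for that difference. With inducer the call was lost without WT replicate 3 (adjusted p = 0.0512), and with replicate 2 or 3 of every group left out it was lost in both treatments (adjusted p from 0.093 to 0.2).

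The inducer did not give a called change of KYNU in either line. The values were 1.40 on the log2 scale in NS1 cells (SE 1.02, adjusted p = 0.49), from 12 reads with inducer and 4 without over 3 libraries each, and -0.16 in WT cells (SE 0.49, adjusted p = 1). At these counts a change of moderate size was not detectable.

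QPRT (ENSG00000103485.19, chromosome 16), the quinolinate phosphoribosyltransferase that leads into NAD, had one of the highest levels of the route and a strong replicate pattern. NS1 cells held 51.6, 229 and 239 normalised CPM without inducer and 135, 441 and 487 with it. WT cells held 78.2, 141 and 176 without inducer and 56.2, 162 and 168 with it. Replicate 1 was the lowest in all 4 groups, 2.03-fold to 4.53-fold below the mean of replicates 2 and 3. A 15.7% share of its exon bases is shared with AC009086.2 on the same strand, not analysed here. With inducer the folds within pairs were 2.62, 1.93 and 2.04 in NS1 cells, and in WT cells they were 0.719, 1.15 and 0.952.

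The test of QPRT therefore depended on whether pairs were kept. With inducer in NS1 cells it gave 1.04 on the log2 scale (SE 0.58, adjusted p = 0.345) without pairing and 1.11 (SE 0.11, adjusted p = 5.12e-06) with replicates paired within each line. Without replicate 1 of every group the unpaired value was 0.99 (SE 0.12, adjusted p = 0.000354). In WT cells it was -0.03 unpaired (SE 0.58) and -0.11 paired (SE 0.11), both with an adjusted p of 1. NS1 cells with inducer were 2.76-fold above WT cells with inducer (log2 1.47, SE 0.58, adjusted p = 0.0782), a difference called without replicate 1 of every group (2.82-fold, log2 SE 0.12, adjusted p = 3.48e-06).

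**Figure D2:**
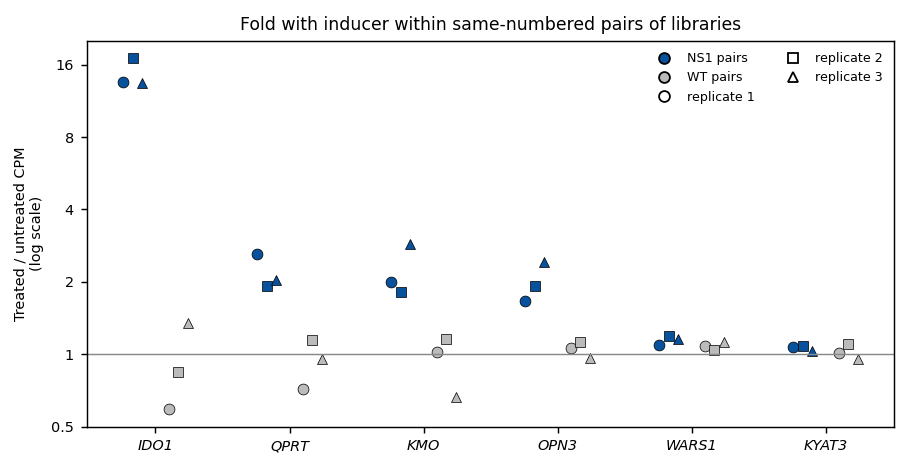
Fold with inducer within same-numbered pairs of libraries (y axis, log scale; 1 is no change) for IDO1, QPRT, KMO, its overlapping neighbour OPN3, WARS1 and KYAT3; blue points are the 3 NS1 pairs and grey points the 3 WT pairs. All NS1 pairs of QPRT lie between 1.93 and 2.62 and those of KMO between 1.82 and 2.88, while the WT pairs of all 6 genes lie on both sides of 1 or within 1.13-fold of it.

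WARS1 (ENSG00000140105.18, chromosome 14), which charges tRNA with tryptophan, was lower in the NS1 line whatever the treatment. Untreated WT cells held 225, 203 and 211 normalised CPM and untreated NS1 cells 125, 140 and 147. With inducer WT cells held 244, 212 and 238 and NS1 cells 136, 167 and 170. The lines did not overlap in either treatment. WARS1 fell by 0.64 on the log2 scale without inducer (SE 0.11, adjusted p = 0.00354) and by 0.55 with it (SE 0.11, adjusted p = 0.00292) in NS1 relative to WT cells. Each call held in all 6 fits that left out a single library of the groups compared. The untreated call was lost with replicate 2 or 3 of every group left out (adjusted p = 0.0943 and 0.0803). A 6.1% share of its exon bases overlaps the antisense gene AL157871.4, which held 112 to 400 reads a library.

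Unlike IDO1, WARS1 moved little with inducer. In NS1 cells the 3 pairs had folds of 1.09, 1.19 and 1.16 (log2 0.20, SE 0.11, adjusted p = 0.358, or 0.19 with an adjusted p of 0.0479 when paired within each line). In WT cells the folds were 1.08, 1.04 and 1.13 (log2 0.12, SE 0.11, adjusted p = 1). The difference between these changes was 0.08 (SE 0.16, adjusted p = 0.917).

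The remaining enzymes showed smaller differences between group means. AFMID (ENSG00000183077.15, chr17:78187317-78207701 on GRCh38) had group means from 6.45 ± 1.24 to 8.37 ± 0.47 normalised CPM (SD, n = 3). KYAT3 (ENSG00000137944.18, chromosome 1), a kynurenine aminotransferase, lay between 27.6 ± 5.14 and 31.1 ± 0.714, and 20.3% of its exon bases are shared with RBMXL1 on the same strand. KYAT1 (ENSG00000171097.14, chromosome 9), its paralogue, ranged from 6.03 ± 1.58 in NS1 cells with inducer to 8.85 ± 0.844 in WT cells with inducer. HAAO (ENSG00000162882.15, chromosome 2), the dioxygenase that makes the precursor of quinolinic acid, had 0.917 ± 0.217 in untreated NS1 cells and 2.01 ± 0.266 in WT cells with inducer.

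None of these 4 was called in any of the 5 tests by the main edgeR fit, with TMM scaling, the filter on low counts and no block. The nearest was HAAO between the lines with inducer. Its WT libraries held 2.09, 2.23 and 1.71 and its NS1 libraries 1.35, 0.873 and 1.25 normalised CPM, without overlap (log2 -0.78, SE 0.28, adjusted p = 0.0518), and it passed the threshold with library totals in place of TMM scaling and with one block term per replicate number (adjusted p = 0.0384 and 0.0415). KYAT1 differed there by -0.56 (SE 0.27, adjusted p = 0.142), and it passed the threshold with that block (adjusted p = 0.0421) and with no filter on low counts (adjusted p = 0.0404).

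The counts of members called are given beside the share of all genes called. With inducer in NS1 cells, 0 of the 8 tested members other than IDO1 were called by edgeR at an adjusted p under 0.05, against 6.15% of all genes. At an unadjusted p of that size there was 1, KMO, and DESeq2 also called KMO. With replicates paired within each line 3 were called, KMO, QPRT and WARS1, all higher, against 25.9% of all genes. In WT cells edgeR called 0 of 8 members and 0% of all genes, with no member and 94 genes at an unadjusted p under 0.05 and none by DESeq2.

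Between untreated lines 2 of 8 members were called, KYNU and WARS1, both lower in NS1 cells, against 12.5% of all genes. For KYNU, which was tested through its WT libraries, nothing is read from that count here or with inducer. With inducer 3 of 8 were called, KMO higher and KYNU and WARS1 lower, against 28.2%. For the difference between the inducer changes of the lines, 0 of 8 were called by edgeR and by DESeq2 against 0.0225% of all genes, with KMO alone at an unadjusted p under 0.05. When replicates were paired within each line, KMO and QPRT were called there, against 14% of all genes. KMO differed by 1.15 (SE 0.24, adjusted p = 0.00576) and QPRT by 1.22 (SE 0.15, adjusted p = 0.000166), both with the larger change in NS1 cells. The median log2 fold change of the 8 members with inducer in NS1 cells was 0.26, beside 0.006 over all genes tested. The 2 comparisons within a line and the 2 between lines use the same 12 libraries in turn, so their values are not independent.

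**Figure D3:**
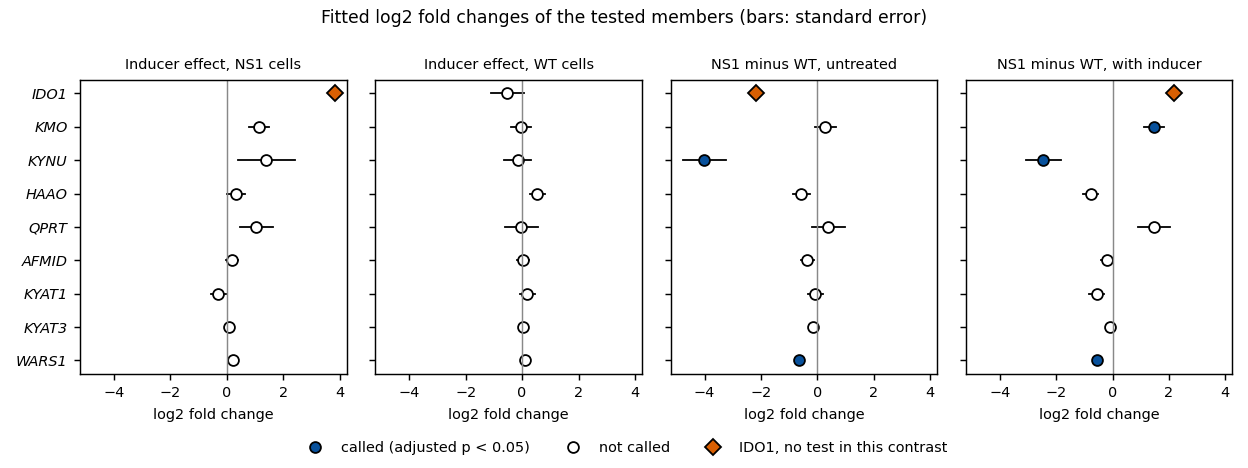
Fitted log2 fold change (x axis) of the 9 tested members in 4 comparisons; bars are standard errors, filled circles are called at an adjusted p under 0.05 and diamonds mark IDO1 where no test is given. KYNU and WARS1 are filled and left of 0 in both comparisons of the lines, and KMO is filled and right of 0 with inducer. KYNU passed the filter on low counts through its WT libraries, so nothing is read from its being filled.

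Levels between members are compared per kilobase of exon, using exon models of GENCODE release 29. In untreated NS1 cells QPRT had 47.5, WARS1 21.6 and KYAT3 12 normalised CPM per kilobase. KYAT1 had 2.05, AFMID 1.59, KMO 0.764, HAAO 0.336, IDO1 0.225 and KYNU 0.00533. With inducer the same line held 97.3 for QPRT, 24.8 for WARS1, 3.22 for IDO1, 1.7 for KMO and 0.0143 for KYNU. IDO1 thus passed AFMID, KYAT1, KMO and HAAO in that order of means.

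The 6 genes whose log2 CPM went most nearly with IDO1 over the 12 libraries, of 16519 compared, were KIAA1522 (Pearson r 0.969), 2 genes named NPEPPSP1 (0.952 and 0.941), ENSG00000261499 (0.947), IFI30 (0.936) and SLCO3A1 (0.932). The 2 NPEPPSP1 genes are pseudogene copies whose reads may be split between them. IFI30, a lysosomal thiol reductase known to be induced by interferon-gamma, had 8.77 ± 0.419 normalised CPM in untreated NS1 cells, 13 ± 0.586 with inducer and 10.8 in both WT groups. KIAA1522 had 62.6 ± 3.71 in untreated NS1 cells, 102 ± 6.01 with inducer and 74 ± 20.8 in untreated WT cells.

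Some genes of interferon-gamma signalling and some of its targets rose with inducer in NS1 cells. IFNG itself had no reads in any library. Of 12 tested genes of the signalling list, 3 were called, against 6.15% of all genes, and all rose. Among them were IRF9, by 1.17 on the log2 scale (adjusted p = 0.0167), and IRF1, by 0.56 (adjusted p = 0.0407). In the 6 fits without a single library the call of IRF9 held in 3 (adjusted p up to 0.0779) and that of IRF1 in 0 (adjusted p up to 0.126). The list median was 0.28. IRF9 and IRF1 encode transcription factors that act on interferon-responsive promoters. IRF1, a known regulator of IDO1, held 20.1, 18.1 and 18.3 normalised CPM in NS1 cells with inducer and 11.8, 13 and 13.6 without it, but it stayed below WT cells, which held 32.1, 24.1 and 26.

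Of 16 tested interferon-gamma-induced genes 4 were called, against the same 6.15%, and all rose with inducer in NS1 cells, with a list median of 0.51. They were the guanylate-binding proteins GBP2 (1.36, adjusted p = 0.0409) and GBP1 (1.12, adjusted p = 0.00967), APOL6 (0.89, adjusted p = 0.0116) and the peptide transporter TAP1 (0.54, adjusted p = 0.0136). The call of GBP2 held in 1 of the 6 fits without a single library (adjusted p up to 0.156). GBP1 held 30, 52.5 and 45.7 normalised CPM with inducer and 14.1, 21.8 and 23 without. With replicates paired within each line 25.9% of all genes were called. In that fit 11 of the induced genes were called higher and 1 lower, and 6 higher and 1 lower of the signalling list. The calls of the signalling list were not stable to single libraries, with 0 to 4 called in the fits that left out 1 library and 0 without replicate 2 or 3 of every group. For the induced genes these counts were 2 to 8 and 0.

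Before inducer part of each list was lower in NS1 than in WT cells, where 12.5% of all genes were called. Called lower were 5 of 12 signalling genes, among them IRF1 (-1.11, adjusted p = 0.000594), IRF9 (-1.15, adjusted p = 0.0106) and SOCS1, an inhibitor of the pathway (-2.57, adjusted p = 0.0305). Of the induced genes 5 of 16 were called lower, among them the immunoproteasome subunit PSMB9 (-1.37, adjusted p = 0.00278), APOL6 (-1.12, adjusted p = 0.00182) and the chemokine CXCL11 (-2.30, adjusted p = 0.0452). The call of SOCS1 held in 1 and that of CXCL11 in 2 of the 6 fits without a single library. With inducer the direction was mixed. GBP4 (2.39), GBP2 (1.77) and GBP1 (1.75) were called higher in NS1 cells and PSMB9 (-0.97) and TAP2 (-0.43) lower (adjusted p from 0.000115 to 0.00942).

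Carriers of tryptophan and kynurenine differed between the lines. SLC7A5 and SLC3A2, which together form the LAT1 exchanger that carries tryptophan and kynurenine, were both lower in untreated NS1 cells. SLC7A5 held 1349, 1275 and 1153 normalised CPM in untreated WT cells and 476, 722 and 658 in untreated NS1 cells (log2 -1.03, SE 0.22, adjusted p = 0.0101). SLC3A2 differed by -0.83 (SE 0.20, adjusted p = 0.0179). The related light chain SLC7A8 (LAT2) went the other way, with 2.01, 2.03 and 1.06 in untreated WT and 2.9, 4.72 and 5.77 in untreated NS1 cells (log2 1.33, SE 0.30, adjusted p = 0.0116), as did the aromatic amino acid carrier SLC16A10 (1.47, adjusted p = 0.0312, a call kept in 1 of the 6 fits without a single library). SLC16A10 had 15, 5 and 3 reads in untreated WT libraries and 26, 16 and 14 in untreated NS1 libraries. It passed the filter on low counts through its NS1 libraries, so a line difference was built into its being tested. In all, 2 of 6 tested genes were called higher and 2 lower, against 12.5% of all genes. For SLC16A10 nothing is read from that count. With inducer in NS1 cells 0 of the 6 were called by edgeR and by DESeq2, against 6.15% of all genes by edgeR, and 2 had an unadjusted p under 0.05.

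Among the other enzymes of kynurenine and NAD synthesis, 1 of 8 was called higher and 3 lower in untreated NS1 cells, against 12.5% of all genes. AADAT, a further kynurenine aminotransferase, was higher (0.76, adjusted p = 0.0216). NAMPT, the rate-limiting enzyme of NAD salvage, was lower, with 77.3, 73 and 69.9 normalised CPM against 87.7, 165 and 151 in WT cells (log2 -0.87, adjusted p = 0.0247). NMNAT2 (-0.78, adjusted p = 0.0148) and the NAD synthetase NADSYN1 (-0.47, adjusted p = 0.0178) were lower too. These calls rest on few libraries: without single libraries 0 to 4 genes of the list were called. NADSYN1 was the only one of the 8 called with inducer in NS1 cells (0.46, adjusted p = 0.0319), against 6.15% of all genes. Its call held in 2 of the 6 fits without a single library (adjusted p up to 0.117).

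WARS1 can be set beside the other tRNA synthetases of the cytosol. In untreated NS1 cells 4 of 19 were called lower and 2 higher, against 12.5% of all genes called in either direction. GARS1 (-0.87, adjusted p = 0.00382), CARS1 (-0.67, adjusted p = 0.0268) and YARS1 (-0.43, adjusted p = 0.0484) were lower than in WT cells, and VARS1 (0.41, adjusted p = 0.0373) and NARS1 (0.40, adjusted p = 0.00985) higher. The calls of CARS1 and YARS1 each held in 1 of the 6 fits without a single library, and that of VARS1 in 2. With inducer 11 were called lower and 2 higher, against 28.2% of all genes, and the list median was -0.36, beside -0.004 over all genes and -0.55 for WARS1. The count with inducer was 6 to 10 in the fits without a single library and 2 without replicate 2 or 3 of every group. With inducer in NS1 cells 1 of 19 was called, near the share of 6.15% of all genes. It was VARS1, which fell by 0.48 (adjusted p = 0.0317), a call that held in 2 of the 6 fits without a single library (adjusted p up to 0.135). The list median was -0.13, and 6 genes, all lower, had an unadjusted p under 0.05 by edgeR, a count from which nothing is read. With replicates paired within each line 7 of the 19 were called lower and 1 higher, against 25.9% of all genes.

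GCN2 and ATF4 turn on the genes of the amino acid starvation response when tRNAs are uncharged. In untreated NS1 cells 3 of 9 were called, against 12.5% of all genes, and all were lower than in WT cells. They were asparagine synthetase ASNS (-1.23, adjusted p = 0.00161), the mTORC1 inhibitor SESN2 (-0.91, adjusted p = 0.0337) and the serine synthesis enzyme PHGDH (-0.82, adjusted p = 0.0168). The call of SESN2 held in 1 of the 6 fits without a single library. With inducer 5 of 9 were called, against 28.2% of all genes, and all were lower. ASNS held 38.9, 57 and 53.8 normalised CPM in WT cells with inducer and 14.5, 17.5 and 16.4 in NS1 cells with inducer, where IDO1 was highest. With inducer in NS1 cells edgeR and DESeq2 called 0 of the 9, against 6.15% of all genes by edgeR, and none had an unadjusted p under 0.05. With replicates paired within each line 4 were called lower, against 25.9% of all genes.

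Of the aryl hydrocarbon receptor AHR and its targets, 1 of 6 tested genes was called with inducer in NS1 cells, against 6.15% of all genes. The list median was 0.58, and 5 genes (AHR, AHRR, ALDH3A1, ARNT and NQO1) had an unadjusted p under 0.05 by edgeR, all higher. The share of all genes at that unadjusted p is not given here, so nothing is read from this count. With replicates paired within each line 5 were called higher and 0 lower, against 25.9% of all genes. NQO1, a quinone reductase, held 489, 597 and 734 normalised CPM with inducer and 297, 442 and 420 without it (log2 0.65, SE 0.17, adjusted p = 0.0352), a call kept in 1 of the 6 fits without a single library. ALDH3A1 had 2.86, 4.89 and 8.3 with inducer and 0.617, 1.24 and 0.866 without it, without overlap (2.54, adjusted p = 0.0833). CYP1A1 and CYP1B1, the targets most often used to read the receptor, were below 1 normalised CPM in all libraries. TIPARP changed by -0.11 (adjusted p = 0.68). Between the lines with inducer NQO1 (0.89, adjusted p = 0.00157) and ALDH3A1 (2.76, adjusted p = 0.0212) were called higher in NS1 cells, the second in 3 of the 6 fits without a single library. Without replicate 2 or 3 of every group, none of the 8 lists had more than 1 gene called between untreated lines, more than 3 between the lines with inducer, or any with inducer in NS1 cells. Fits without a replicate number have 8 libraries, and the share of all genes called in them is not given here. Nothing particular to the lists is therefore read from counts in those fits, here or above.

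The cell type labels were checked against markers. All 8 markers of the line passed the filter on low counts, with KRT7 the highest, between 1534 and 6020 normalised CPM. EPCAM was the lowest of them, at 0.617 to 4.5, and VIM held 23.5 to 87.7. The leukocyte markers PTPRC and CD3E had at most 1 read in any library, the fibroblast marker DCN and the hepatocyte markers ALB and TTR had none, and endothelial markers summed to at most 4.07 normalised CPM. Of 8 leukocyte markers 4 were tested, and LAPTM5 led with 47.5 to 193. The summed leukocyte list lay at 177 to 205 in untreated WT, 168 to 217 in treated WT, 80.6 to 116 in untreated NS1 and 59.3 to 90.8 in treated NS1 libraries. PDGFRB of the fibroblast list and PECAM1 of the endothelial list were called with inducer in NS1 cells, where the summed fibroblast list reached 4.42 to 17.6 normalised CPM. Their part in the values of the members was not tested. Libraries held 10593934 to 20266996 counted reads.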

How the data were processed

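Poly(A) RNA was selected and sequenced from 12 T24 libraries (NEBNext Ultra II; NextSeq, 75 cycles), per the labels. The deposited file holds raw read counts of 60603 Ensembl genes, with 1 column for each library, identified by column name. The submitters' processing notes name STAR 2.7.3a, featureCounts 1.6.4 and hg38; the annotation release and strand setting are not given in the sources used here. A name table gave symbols for 60306 genes.

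Counts were tested with edgeR 4.0.16 in R 4.3.3 (filterByExpr, TMM scaling, quasi-likelihood F test over all 12 libraries and 4 groups, Benjamini-Hochberg adjustment over 17775 genes, called at an adjusted p under 0.05). Every adjusted p is from this test unless the text names DESeq2 (1.42.0), pairing or a block, another scaling or filter, or left-out libraries. Those other fits, apart from DESeq2, used the same edgeR test with the named change. The number of all genes at an unadjusted p under 0.05 is given only for the inducer in WT cells. In the other comparisons nothing is read from counts at an unadjusted p. The standard error is the log2 fold change divided by the square root of F. The counting floor was 3 reads a library and covers counting error only. Scripts were tested on simulated counts.

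Replicate numbers come from the sample titles. Same-numbered treated and untreated libraries deviated together within a line (correlations of 0.71, 0.39 and 0.38 in NS1 and 0.75, 0.38 and 0.26 in WT cells), so the replicate number was also fitted as a block within each line; between lines the correlations were 0.01 to 0.19 and the numbers were not taken as pairs. No label says that replicates are separate cultures, so p-values measure the spread between these libraries, which may be technical. No pair of replicates agreed within sampling noise (lowest chi-square per degree of freedom 3.03). Replicate 1 against 2 or 3 gave 17.57 to 30.65 over the 4 groups. Replicates 2 and 3 gave 18.2 in untreated WT, 4.2 in treated WT, 3.03 in untreated NS1 and 5.46 in treated NS1 cells. Replicate 1 also had the most counted reads in each group. A distance of replicate 1 was thus not particular to IDO1 or QPRT.

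Members and gene lists were chosen with earlier results of these data known. Named genes were the 10 members, up to 3 called genes at each end of every list in every comparison, and the 6 genes most correlated with IDO1 among those with a mean of at least 1 CPM; other genes are named for context, chosen after their values were seen, and the values of 1 called list gene are not reported here. Alternatives were RLE scaling, library totals, other filters, DESeq2, replicate blocks, fits of only the groups compared, and fits without single libraries or replicate numbers.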

Additional observations from a re-analysis of the deposited data

Results flagged for a closer look

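The change with inducer differed between NS1 and WT cells for 2 members when replicates were paired within each line, by a test of the difference itself. For KMO the difference was 1.15 on the log2 scale with a replicate block within each line (adjusted p = 0.00576), but it did not pass the threshold with one block term per replicate number (adjusted p = 0.153), with pair folds of 2, 1.82 and 2.88 in NS1 and 1.02, 1.16 and 0.666 in WT cells. For QPRT it was 1.22 with the block within each line (adjusted p = 0.000166) and 1.24 with one block term per replicate number (adjusted p = 0.0264), with pair folds of 2.62, 1.93 and 2.04 in NS1 and 0.719, 1.15 and 0.952 in WT cells. OPN3, which shares exon bases with KMO, differed by 0.88 with the block within each line (adjusted p = 0.00401). Without a block the differences were 1.19 for KMO (adjusted p = 0.358) and 1.07 for QPRT (adjusted p = 0.689).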

How the results depend on the processing

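Of the 8 tested members other than IDO1, those called with inducer in NS1 cells numbered 0, and 1 with DESeq2 or with only the groups compared, 2 with no filter on low counts, 2 with a replicate block, 3 with the block within each line, and 0 to 2 with libraries left out. Between untreated lines 2 were called, 1 with at least 10 counts in every library, which removes KYNU, and 0 to 3 with libraries left out. With inducer 3 were called between the lines, 5 with no filter, 6 with the replicate block and 1 to 4 with libraries left out. For the difference of the inducer changes 0 were called, 2 with no filter, 1 with the replicate block, 2 with the block within each line and 0 to 1 with libraries left out. The block within each line was not run between the lines, since it takes up that difference. Fits without a replicate number have 8 libraries and the fit with at least 10 counts tests fewer genes. The cause of the other changes was not tested. With inducer in NS1 cells 6.15% of all genes were called in the main fit and 25.9% with the block within each line. For the difference of the inducer changes these shares were 0.0225% and 14%. Shares in the other fits are not given here, so nothing about the members is read from changes in these counts. Of 776 recomputed fold changes of members, 31 changed sign, all with libraries left out and none with all 12; the lowest adjusted p among them was 0.492. Their ranges with libraries left out were -1.42 to 0.90 for IDO1, -0.72 to 0.21 for KYNU, -0.62 to 0.46 for KMO, -0.31 to 0.33 for QPRT, -0.012 to 0.056 for AFMID and -0.023 to 0.072 for KYAT3 with inducer in WT cells; -0.17 to 0.43 for AFMID and -0.096 to 0.25 for KYAT3 with inducer in NS1 cells; -0.30 to 0.23 for KYAT1 between untreated lines; -0.48 to 0.050 for AFMID and -0.26 to 0.013 for KYAT3 between lines with inducer; and -0.22 to 0.40 for AFMID, -0.60 to 0.35 for HAAO and -0.13 to 0.23 for KYAT3 for the difference of the inducer changes. Depth limits KYNU, TDO2 and HAAO most, with at most 31, 2 and 44 reads in a library.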

Other observations

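Other routes of tryptophan and aromatic amines were measured in part. Of 7 genes on this list 3 were tested, and edgeR and DESeq2 called 0 of them in any of the 5 tests, with none at an unadjusted p under 0.05. Of all genes edgeR called 0% to 28.2% in these tests. IL4I1, an amino acid oxidase known to act on tryptophan, had 14.9 ± 2.35 normalised CPM in untreated WT cells (SD, n = 3), 15.2 ± 4.75 in WT cells with inducer, 10.9 ± 0.932 in untreated NS1 cells and 12.2 ± 2.04 in NS1 cells with inducer. The mitochondrial tryptophanyl-tRNA synthetase WARS2 differed by 0.25 on the log2 scale between untreated lines (SE 0.21, adjusted p = 0.475), against -0.64 for its cytosolic counterpart WARS1. HLA-DRA, a class II gene often induced by interferon-gamma, had no reads in any library, while its regulator CIITA had 14.4 ± 0.469 in untreated WT cells, 16.2 ± 0.395 in WT cells with inducer, 17.6 ± 1.25 in untreated NS1 cells and 19.9 ± 2.57 in NS1 cells with inducer (inducer in NS1 cells 0.18, adjusted p = 0.446).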
